A study of Mus musculus with 19 samples.

Results

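The extracellular matrix and stellate cell genes described here were 49 genes chosen by symbol, in groups of 13 collagens, 17 other matrix proteins, 10 matrix enzymes and inhibitors, and 9 stellate cell markers and signals. All 49 symbols were found among the 51734 gene symbols of the expression table. Liver RNA was sequenced from 19 female Balbc mice, aged 12 weeks by their labels: 7 were nulliparous (NUL), 6 were at lactation day 10 (LAC), and 6 had been weaned and were at involution day 6 (ID6). Each library was from a separate animal, the labels list no transgene or agent, and the study's methods name both Charles River Laboratories and The Jackson Laboratory as sources without saying which mouse came from which. The study asked how reproductive stage acts on liver size and function, and the comparisons were LAC with NUL, ID6 with LAC, and ID6 with NUL.

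The extracellular matrix of the liver is thin. Fibrillar collagens, proteoglycans and elastic fibers lie around the portal tracts and central veins, while a loose matrix rich in basement membrane proteins lines the sinusoids. Hepatic stellate cells sit between hepatocytes and the sinusoidal endothelium, store vitamin A when quiescent, and secrete much of the fibrillar matrix, together with the growth factor HGF and the large glycoprotein reelin. Portal fibroblasts and vascular smooth muscle cells also make matrix, whereas plasma proteins of the matrix such as vitronectin and plasma fibronectin come from hepatocytes. TGF-β is the best known inducer of matrix genes in stellate cells, metalloproteinases degrade matrix, and TIMP proteins inhibit them.

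Levels of the genes ranged widely. Values are in TPM, which give the share of a gene among all transcripts of a mouse after correction for gene length, so they can be compared between genes. Vitronectin (Vtn) had the highest mean over the 19 mice, 1699 TPM, followed by Col18a1, which carries the endostatin domain, at 274 TPM, fibronectin (Fn1) at 258 TPM, Ecm1 at 136 TPM and decorin (Dcn) at 105 TPM. These 5 were the genes with a mean of 100 TPM or more. The median over the 49 genes was 3.03 TPM, and 8 genes had a mean under 1 TPM. The lowest was the collagen crosslinking enzyme Lox at 0.0932 TPM, which missed the minimum mean of 0.1 TPM for testing. The other 48 genes were tested. All stellate cell markers and signals lay between 1.40 TPM (Pdgfra) and 11.8 TPM (Reln). Bulk liver tissue was measured, described as the caudate lobe or as whole liver in different places of the study's methods, so fewer cells of a type and less RNA per cell cannot be told apart.

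TPM keep no read number, so the depth of each mouse is not known from these values, and the precision rests on the spread between mice. Between 11204 and 11792 genes reached 1 TPM in each mouse. Hepatocyte markers summed to between 61265 and 152430 TPM per mouse, so the tissue matched its label. A gene was called changed at an adjusted p under 0.05 in limma-trend on log2(TPM + 1), fitted over 16209 genes. Because 1 was added to each TPM, differences of genes near or below 1 TPM are understated. The median difference of all genes tested was -0.032 for LAC minus NUL and 0.0996 for ID6 minus LAC on the log2 scale, and median-ratio scaling of the mice moved the latter to -0.00556, so the differences below are to be read against those medians. The animal numbers fall into a range under 200 (3 NUL and 3 LAC mice) and a range of 200 and above (4 NUL, 3 LAC and all 6 ID6 mice). Neither the labels nor the methods name these ranges as a batch. Since no ID6 mouse was numbered under 200, values among mice numbered 200 and above are given beside many of the results.

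Of the 48 genes, 12 were lower and 1 was higher in LAC than in NUL mice. Over all genes tested, 6.51% were called lower and 2.72% higher in that comparison. From LAC to ID6, 15 of the 48 were higher and 0 lower, where 18.1% of all genes were called higher and 4.73% lower. Scaling changed the split over all genes, from 441 higher and 1056 lower to 749 and 736 between LAC and NUL, and from 2938 higher and 767 lower to 1302 and 1355 between ID6 and LAC. Under median-ratio scaling 11 of the 48 genes were lower in LAC (4.54% of all genes) and 9 were higher and 1, Mmp15, lower at ID6 (8.04% and 8.36% of all genes). With only NUL and LAC mice in the fit, 5 of the 12 lower calls in LAC (Col3a1, Ecm1, Lum, Mmp2 and Timp2) were lost, at an adjusted p of 0.0505 to 0.0994. Lower calls over all genes fell from 1056 to 695 in that fit. With only LAC and ID6 mice, 7 of the 48 genes gained a call. At an unadjusted p under 0.05, 24 of the 48 were higher and 2 lower at ID6 than in LAC mice. Between ID6 and NUL, 0 of the 48 were called by limma-trend, 5 had an unadjusted p under 0.05, and 3.36% of all genes were called higher and 0.864% lower. Both of the first comparisons used the same LAC mice, so their values are given side by side. Lower in LAC and higher at ID6 were 8 genes (Col3a1, Dcn, Ecm1, Hgf, Loxl1, Mmp2, Postn and Timp2). A further 4 genes were called only between LAC and NUL in the lower direction (Acta2, Lum, Pdgfra and Reln) and 7 only between ID6 and LAC (Col5a1, Col5a2, Col6a2, Sparc, Tgfb1, Timp1 and Vtn). Whether the calls differed between those comparisons was not tested. The share of all genes with each pair of calls was not counted, so these joint counts have no background beside them. The remaining tested genes were 28 called in neither and Tgfbr2, which was higher in LAC.

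**Figure D1:**
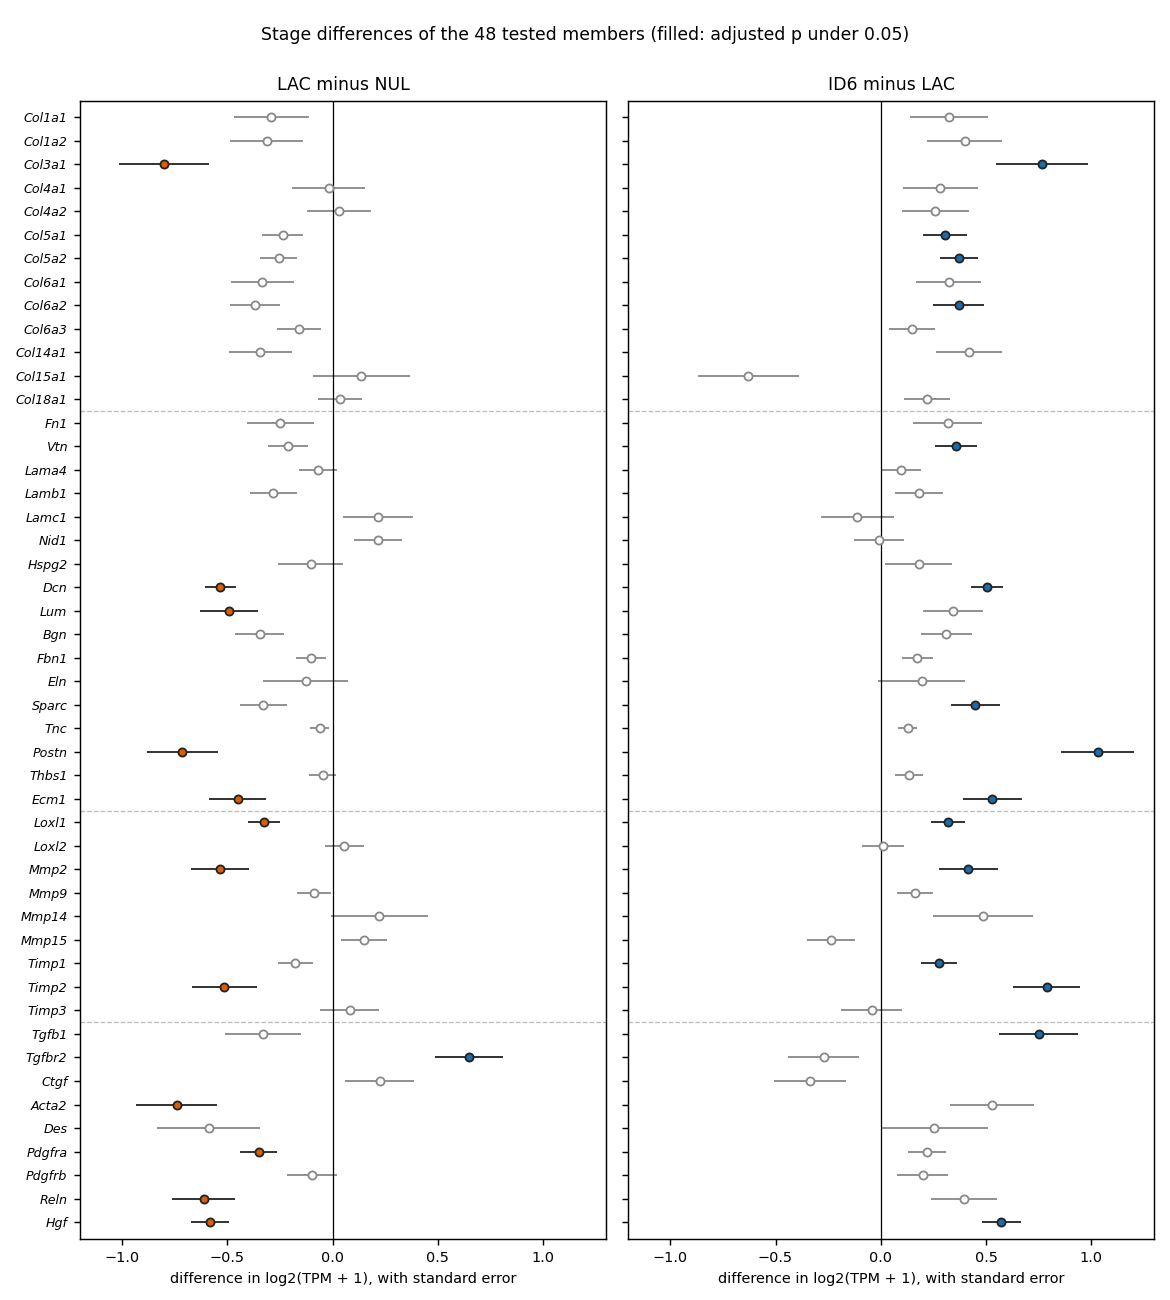
Difference in log2(TPM + 1) of each of the 48 tested genes, LAC minus NUL on the left and ID6 minus LAC on the right; points are limma-trend estimates, bars their standard errors, filled points have an adjusted p under 0.05, and dashed lines separate collagens, other matrix proteins, matrix enzymes and inhibitors, and stellate cell markers and signals. On the left 12 filled points lie below 0 and 1 above, and on the right all 15 filled points lie above 0.

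The plot of stage differences shows estimates below 0 for 37 of 48 genes between LAC and NUL and above 0 for 41 of 48 between ID6 and LAC. Read against the medians of all genes, 36 lay below that median in the first comparison and 39 above it in the second. The median difference over the 48 genes was -0.24 for LAC minus NUL, 0.29 for ID6 minus LAC and 0.07 for ID6 minus NUL, beside 0.065 over all genes for the last.

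Regulatory sequence is shown for 4 of the 8 genes called lower in LAC and higher at ID6. Those 2 calls share the LAC mice with opposite sign. Dcn, Loxl1 and Mmp2 are not shown, and Timp2 is left out because its window overlaps annotated exons. RefSeq promoter entries (GRCm38.p6) matched 32 of the 49 genes. The 250 bases before the transcription start are printed 5′ to 3′ on the strand of the gene, and capitals mark matches to the motifs searched on both strands: TATAAA for the TATA box, the CCAAT box by its own letters, GGGCGG for the GC box, TGANTCA for AP-1, and the CArG box, with no overlap between matches in the windows shown.
Col3a1 (chr1:45311288-45311537, plus strand): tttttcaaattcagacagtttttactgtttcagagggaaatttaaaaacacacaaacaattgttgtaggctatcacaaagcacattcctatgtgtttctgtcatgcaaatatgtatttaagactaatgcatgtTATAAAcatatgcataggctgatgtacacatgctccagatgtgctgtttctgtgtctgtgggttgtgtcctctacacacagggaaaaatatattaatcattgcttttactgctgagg
Ecm1 (chr3:95739570-95739819, minus strand): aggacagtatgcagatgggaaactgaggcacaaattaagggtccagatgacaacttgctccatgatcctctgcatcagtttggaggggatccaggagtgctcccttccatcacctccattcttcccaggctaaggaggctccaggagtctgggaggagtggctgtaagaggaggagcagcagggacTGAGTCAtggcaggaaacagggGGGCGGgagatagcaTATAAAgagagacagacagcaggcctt
Hgf (chr5:16553245-16553494, plus strand): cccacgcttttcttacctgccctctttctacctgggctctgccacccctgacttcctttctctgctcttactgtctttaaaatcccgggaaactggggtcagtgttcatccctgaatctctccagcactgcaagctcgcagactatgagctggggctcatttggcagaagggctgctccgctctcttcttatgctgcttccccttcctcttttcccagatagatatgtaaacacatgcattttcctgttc
Postn (chr3:54360857-54361106, plus strand): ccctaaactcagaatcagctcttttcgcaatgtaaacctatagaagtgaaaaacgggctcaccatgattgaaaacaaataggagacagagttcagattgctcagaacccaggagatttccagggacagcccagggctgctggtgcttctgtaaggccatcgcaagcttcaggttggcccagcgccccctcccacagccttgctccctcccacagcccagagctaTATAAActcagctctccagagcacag
The Ecm1 and Postn windows held a TATA box 27 to 22 and 26 to 21 bases before the start, and the Ecm1 window also held a GC box and an AP-1 match, TGAGTCA. In Col3a1 the TATAAA letters lay 117 to 112 bases before the start. The Hgf window held no match to these letters. Among the 32 member windows, 5 (15.6%) held a TATA box, 10 (31.2%) a CCAAT box, 20 (62.5%) a GC box, 2 (6.25%) an AP-1 match and 0 a CArG box. Over 27025 promoters of the same length the shares were 13%, 34.5%, 32.9%, 6.87% and 1.40%. Those used the first listed start of each symbol, whereas the 32 windows used the start nearest the GENCODE gene start, so the shares are not strictly alike. A match is a description of the letters and not a bound site.

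The 13 collagens comprise fibrillar chains (Col1a1, Col1a2, Col3a1, Col5a1 and Col5a2), basement membrane chains (Col4a1 and Col4a2), microfibril-forming type VI chains (Col6a1, Col6a2 and Col6a3), and the fibril- or membrane-associated Col14a1, Col15a1 and Col18a1. In LAC mice 1 of the 13 was lower and 0 higher, beside 6.51% and 2.72% of all genes. At ID6, 4 were higher than in LAC mice, beside 18.1% of all genes. Under median-ratio scaling 1 was lower in LAC and 1 higher at ID6 (4.54% and 8.04% of all genes). Col3a1 (chromosome 1, 45311538 to 45349706, GRCm38), the main chain of reticular fibers, measured 7.18, 11.1 and 17.3 TPM (lowest, median and highest) in NUL mice, 3.07, 6.31 and 8.85 TPM in LAC mice and 7.48, 11.1 and 12.97 TPM in ID6 mice. LAC values lay below the other stages with some overlap, and all 6 LAC mice were below the NUL mean. The difference in log2(TPM + 1) was -0.80 ± 0.21 (SE, adjusted p = 0.0224) for LAC minus NUL and 0.77 ± 0.22 (adjusted p = 0.0173) for ID6 minus LAC. In mean TPM, Col3a1 was 45.8% lower in LAC than in NUL mice and 1.76-fold higher at ID6 than in LAC mice. The first call was lost without mouse LAC_200 (adjusted p = 0.0532) or mouse LAC_213 (adjusted p = 0.0533), and with only NUL and LAC mice in the fit (adjusted p = 0.054). The second call was lost under median-ratio scaling (adjusted p = 0.0525). Among mice numbered 200 and above the differences were larger, -1.15 ± 0.28 (adjusted p = 0.0234) and 1.10 ± 0.26 (adjusted p = 0.0106).

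The type I collagen chains, the bulk of fibrotic scar, were not called in any comparison. Col1a1 ranged from 0.69 to 2.86 TPM in NUL mice (median 1.31), from 0.50 to 1.65 TPM in LAC mice (median 1.06) and from 1.18 to 2.22 TPM in ID6 mice (median 1.51). Its difference was -0.29 ± 0.18 (SE, adjusted p = 0.351) for LAC minus NUL and 0.33 ± 0.19 (adjusted p = 0.218) for ID6 minus LAC. Col1a2, the partner chain, ranged from 2.38 to 6.97 TPM (median 3.09), from 2.00 to 3.60 TPM (median 2.90) and from 3.40 to 4.69 TPM (median 4.11) at the same stages. All groups overlapped in both genes, and the NUL spread was the widest. For Col1a2 the differences were -0.31 ± 0.17 (adjusted p = 0.288) and 0.40 ± 0.18 (adjusted p = 0.115). The ratio of Col1a1 to Col1a2, whose proteins assemble into the same trimer, was 0.383 ± 0.0437 (SD, n = 7) in NUL, 0.357 ± 0.11 (n = 6) in LAC and 0.377 ± 0.0496 (n = 6) in ID6 mice.

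The remaining fibrillar chains, Col5a1 and Col5a2, regulate fibril diameter. Col5a2 measured 0.79, 1.18 and 1.65 TPM (lowest, median and highest) in NUL, 0.58, 0.75 and 1.02 TPM in LAC, and 1.11, 1.32 and 1.49 TPM in ID6 mice. Every ID6 mouse was above every LAC mouse, and the difference was 0.37 ± 0.09 (SE, adjusted p = 0.00593). Between LAC and NUL it was -0.26 ± 0.09 (adjusted p = 0.071). The ID6 minus LAC difference was 0.38 ± 0.10 among mice numbered 200 and above (adjusted p = 0.0257). Col5a1 was higher at ID6 (1.74 ± 0.255 TPM, SD, n = 6) than in LAC mice (1.22 ± 0.219 TPM, n = 6), with a difference of 0.31 ± 0.10 (adjusted p = 0.038) that was lost with any of 9 mice left out, under median-ratio scaling (adjusted p = 0.117) and among mice numbered 200 and above (adjusted p = 0.162). Col6a2 rose by 0.37 ± 0.12 (adjusted p = 0.0335) from 1.16 ± 0.281 to 1.77 ± 0.205 TPM, a call lost with any of 7 mice left out, under median-ratio scaling (adjusted p = 0.109) and among mice numbered 200 and above (adjusted p = 0.093), while Col6a1 (means of 2.75, 1.93 and 2.65 TPM in NUL, LAC and ID6 mice) and Col6a3 (1.11, 0.883 and 1.08 TPM) were not called. Col5a2 lies 24614 bases from Col3a1 on chromosome 1, on the opposite strand. Summed over the 5 fibrillar chains, the level was 19.4 ± 6.48 TPM in NUL, 12.0 ± 3.41 TPM in LAC and 19.3 ± 3.39 TPM in ID6 mice (SD, n = 7, 6 and 6), and the ranges overlapped.

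Other collagens gave no call. Col14a1 measured 20.4 ± 6.28, 15.4 ± 2.20 and 20.8 ± 1.53 TPM in NUL, LAC and ID6 mice, and every ID6 mouse was above every LAC mouse although the adjusted p was 0.0606. Col14a1 was lower in LAC than in NUL mice among those numbered 200 and above (-0.60 ± 0.14, adjusted p = 0.0201). Col15a1, a vascular basement membrane zone collagen, went the other way, with 2.02 ± 1.29, 2.13 ± 0.668 and 1.01 ± 0.385 TPM, a difference of -0.63 ± 0.24 (SE, adjusted p = 0.0668) between ID6 and LAC. Its level differed by range of animal number, being lower by 0.83 ± 0.13 (adjusted p = 6.96e-04) at 200 and above among NUL and LAC mice. Col18a1 had means of 258, 263 and 304 TPM.

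Basement membrane genes gave no call with stage alone in the fit to all mice. These were Col4a1 and Col4a2, the laminin chains Lama4, Lamb1 and Lamc1, the linker nidogen (Nid1) and the heparan sulfate proteoglycan perlecan (Hspg2), and 0 of the 7 were called by limma-trend in any of the 3 comparisons, with 1 (Lamb1, LAC below NUL) at an unadjusted p under 0.05. Their summed level was 28.8 ± 8.01 TPM (SD, n = 7) in NUL, 28.5 ± 4.22 TPM (n = 6) in LAC and 32.2 ± 2.27 TPM (n = 6) in ID6 mice. Between LAC and NUL the differences ran from -0.28 ± 0.11 for Lamb1 to 0.22 ± 0.17 for Lamc1 (SE, adjusted p = 0.126 and 0.479), with Col4a1 at -0.02 ± 0.17 and Col4a2 at 0.03 ± 0.15. By mean over the 19 mice, Col4a1 was at 8.43 TPM, Col4a2 at 5.51 TPM, Hspg2 at 5.39 TPM, Nid1 at 4.03 TPM, Lamc1 at 3.53 TPM, Lamb1 at 1.87 TPM and Lama4 at 1.01 TPM. Col4a1 and Col4a2 lie head to head on chromosome 8 and share 22 exonic bases at their starts. Their ratio was 1.57 ± 0.214, 1.51 ± 0.123 and 1.52 ± 0.168 (SD) in NUL, LAC and ID6 mice. Among mice numbered 200 and above, Lamb1 was lower in LAC than in NUL mice (-0.47 ± 0.13, adjusted p = 0.0425). Lamc1 was higher at 200 and above by 0.58 ± 0.09 (adjusted p = 6.98e-04) among NUL and LAC mice. With the range of animal number as a covariate, Lamc1 was called lower at ID6 than in LAC mice. Col4a1, Col4a2, Lama4 and Hspg2 had lower means in LAC than in NUL mice at 200 and above, and higher means under 200. Their differences over all mice thus average means that moved in opposite directions. In limma-trend the interaction of stage and range was -0.78 ± 0.26, -0.63 ± 0.27 and -0.48 ± 0.16 for the first 3 (adjusted p = 0.251, 0.334 and 0.241). For Hspg2 it was -0.35 ± 0.22 (adjusted p = 0.506). Only the first 3 of the 7 genes had an unadjusted p under 0.05 for it, and none passed. Whether these 7 genes differed from the fibrillar chains was not tested.

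Among the 17 other matrix proteins, 4 were lower in LAC mice (Dcn, Ecm1, Lum and Postn) and 5 were higher at ID6 (Dcn, Ecm1, Postn, Sparc and Vtn). Shares of all genes in those directions were 6.51% and 18.1%. Decorin, a small leucine-rich proteoglycan that coats collagen fibrils and binds TGF-β, had the smallest adjusted p of all members in both comparisons. Dcn (chromosome 10, 97479609 to 97518143) measured 104, 120 and 130 TPM (lowest, median and highest) in NUL mice, 73.2, 79.8 and 89.5 TPM in LAC mice, and 100.3, 112 and 137 TPM in ID6 mice. No LAC mouse reached the lowest mouse of either other stage. The differences were -0.53 ± 0.07 (SE, adjusted p = 1.85e-04) and 0.50 ± 0.08 (adjusted p = 1.16e-04), so that the LAC mean was 31.2% below NUL and the ID6 mean 1.43-fold above LAC. Both calls held with any mouse left out, under median-ratio scaling (adjusted p = 0.00232 and 0.0145) and among mice numbered 200 and above (-0.62 ± 0.09 and 0.60 ± 0.09, adjusted p = 0.00179 and 4.88e-04).

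Lumican (Lum), a proteoglycan of the same family encoded 46984 bases from Dcn on chromosome 10, measured 3.86, 5.65 and 7.85 TPM in NUL, 3.15, 3.95 and 4.59 TPM in LAC, and 4.27, 5.11 and 6.23 TPM in ID6 mice (lowest, median and highest). LAC mice were lower by 0.49 ± 0.14 on the log2 scale (SE, adjusted p = 0.0306), a call that held in 13 of the 19 fits with 1 mouse left out and was lost in 6 of 11 other settings, among them median-ratio scaling (adjusted p = 0.0623) and only mice numbered 200 and above (adjusted p = 0.105). The difference of 0.34 ± 0.14 between ID6 and LAC did not pass (adjusted p = 0.0928). Dcn exceeded Lum by a ratio of 20.6 ± 4.62 in NUL, 21.0 ± 2.37 in LAC and 22.4 ± 3.01 in ID6 mice (SD). Biglycan (Bgn), the closest relative of decorin, had means of 44.6, 34.4 and 42.8 TPM and differences of -0.35 ± 0.12 and 0.31 ± 0.12 (SE), which did not pass (adjusted p = 0.0691 and 0.071). The former was -0.57 ± 0.15 among mice numbered 200 and above (adjusted p = 0.0322).

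Periostin (Postn) is a matricellular protein of remodeling connective tissue (chromosome 3, 54361109 to 54391037). It measured 4.40, 6.99 and 11.8 TPM (lowest, median and highest) in NUL mice, 2.52, 4 and 5.04 TPM in LAC mice, and 7.51, 8.72 and 9.88 TPM in ID6 mice. All ID6 mice were above all LAC mice. The difference of 1.03 ± 0.17 (SE, adjusted p = 3.30e-04) between ID6 and LAC was the largest of the 48 genes and the only one to reach a log2 difference of 1 (1.03% of all genes), a 2.27-fold change in mean TPM. Between LAC and NUL it was -0.71 ± 0.17 (adjusted p = 0.011), 45.6% lower in mean TPM. Postn also differed by range, higher by 0.60 ± 0.11 at 200 and above (adjusted p = 0.00141), and among those mice alone the stage differences were 0.75 ± 0.13 (adjusted p = 0.002) and -0.70 ± 0.14 (adjusted p = 0.0103).

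Ecm1, a secreted protein known to hold TGF-β in its latent form in liver, measured 101.8, 150 and 190 TPM in NUL, 82.3, 106 and 138 TPM in LAC, and 133.3, 157 and 163 TPM in ID6 mice (lowest, median and highest). It was lower by 0.45 ± 0.13 in LAC (SE, adjusted p = 0.040) and higher by 0.53 ± 0.14 at ID6 (adjusted p = 0.00993). The LAC call held in 10 of 19 fits with 1 mouse left out, and the ID6 call was lost with the range of animal number as a covariate (adjusted p = 0.0518), a range in which Ecm1 itself differed by 0.40 ± 0.11 (adjusted p = 0.0161). Among mice numbered 200 and above Ecm1 differed by -0.49 ± 0.11 and 0.37 ± 0.10 (adjusted p = 0.0162 and 0.0276). Sparc, a collagen-binding glycoprotein, measured 30.6, 37.7 and 47.4 TPM in NUL, 26.5, 30.1 and 39.1 TPM in LAC, and 35.3, 44.5 and 49.1 TPM in ID6 mice. It was higher by 0.45 ± 0.12 at ID6 than in LAC mice (adjusted p = 0.00939; 0.0861 under median-ratio scaling), and its difference of -0.33 ± 0.11 between LAC and NUL did not pass (adjusted p = 0.072) but did among mice numbered 200 and above (-0.59 ± 0.12, adjusted p = 0.0114).

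Of the plasma proteins of the matrix, Vtn was called and Fn1 was not. Vtn measured 1527, 1667 and 1879 TPM (lowest, median and highest) in NUL, 1248, 1511 and 1711 TPM in LAC, and 1614, 1855 and 2356 TPM in ID6 mice. It was higher by 0.36 ± 0.10 at ID6 than in LAC (SE, adjusted p = 0.0135), 1.28-fold in mean TPM, and this call was lost under median-ratio scaling (adjusted p = 0.27) and among mice numbered 200 and above (0.21 ± 0.11, adjusted p = 0.261). Fn1 measured 194, 264 and 359 TPM in NUL, 190, 215 and 281 TPM in LAC, and 199, 264 and 349 TPM in ID6 mice, with all stages overlapping. Its differences of -0.25 ± 0.16 and 0.32 ± 0.16 did not pass (adjusted p = 0.376 and 0.176). Mean Fn1 was 315 TPM in NUL and 223 TPM in LAC mice at 200 and above, and 207 and 222 TPM under 200. Its interaction of stage and range did not pass in limma-trend (adjusted p = 0.268). The elastic fiber genes Eln (means of 2.07, 1.88 and 2.19 TPM in NUL, LAC and ID6 mice) and Fbn1 (0.613, 0.5 and 0.688 TPM) and the matricellular genes Tnc (0.127, 0.0800 and 0.180 TPM) and Thbs1 (0.173, 0.132 and 0.240 TPM) were not called, and the last 3 were at levels where the added 1 TPM hides most of a change. With 0.1 in place of 1 TPM added, Tnc was higher at ID6 than in LAC mice (0.64 ± 0.22, adjusted p = 0.0416), and with 1 added it passed in 4 of 19 fits with 1 mouse left out.

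**Figure D2:**
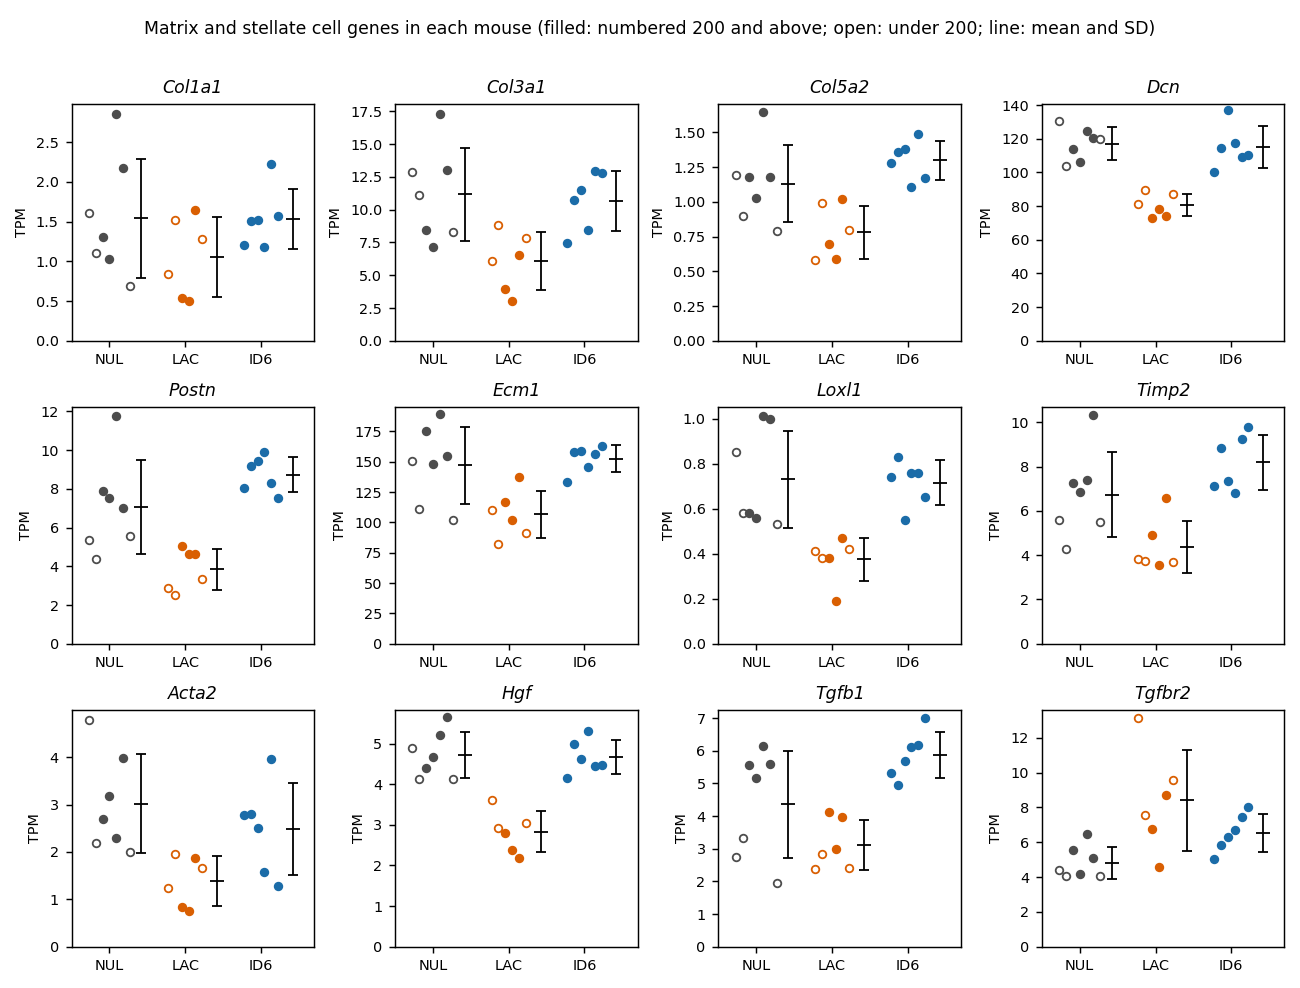
TPM of 12 genes in each mouse at the stages NUL, LAC and ID6 on linear axes from 0; filled points are mice numbered 200 and above, open points mice under 200, and the bar beside each stage is the mean with its SD (n = 7, 6 and 6). LAC points of Dcn and Hgf lie below every NUL and every ID6 point, whereas those of Col1a1 overlap both.

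In the plot of 12 genes by mouse, LAC mice lay below all NUL mice for Dcn, Loxl1, Acta2 and Hgf. These were 4 of the 48 genes without overlap in that direction, beside 2.3% of all genes tested, and 0 were higher without overlap (0.981% of all genes). From LAC to ID6, 8 of the 48 genes were higher without overlap (Col5a2, Col14a1, Dcn, Postn, Loxl1, Timp2, Tgfb1 and Hgf), beside 9.32% of all genes, and 0 were lower without overlap (2.17% of all genes).

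Of the 9 tested matrix enzymes and inhibitors, 3 were lower in LAC mice (Loxl1, Mmp2 and Timp2) and 4 were higher at ID6 (these 3 and Timp1). Shares of all genes in those directions were 6.51% and 18.1%. Timp2 inhibits metalloproteinases and, with Mmp14, activates the gelatinase Mmp2 at the cell surface. Timp2 (chromosome 11, 118301069 to 118355740) measured 4.30, 6.86 and 10.3 TPM (lowest, median and highest) in NUL, 3.54, 3.77 and 6.57 TPM in LAC, and 6.80, 8.10 and 9.79 TPM in ID6 mice. It was lower by 0.52 ± 0.15 in LAC (SE, adjusted p = 0.0421), a call kept in 11 of 19 fits with 1 mouse left out, and higher by 0.79 ± 0.16 at ID6 (adjusted p = 0.00156), where all ID6 mice were above all LAC mice. Timp2 also differed by range of animal number (0.43 ± 0.12, adjusted p = 0.0228), and among mice numbered 200 and above the differences were -0.59 ± 0.18 (adjusted p = 0.066) and 0.63 ± 0.17 (adjusted p = 0.0203).

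Mmp2 measured 0.99, 1.66 and 2.54 TPM (lowest, median and highest) in NUL, 0.35, 0.835 and 1.59 TPM in LAC, and 1.02, 1.53 and 1.77 TPM in ID6 mice. All 6 LAC mice were below the NUL mean. The differences were -0.53 ± 0.14 (SE, adjusted p = 0.0177) and 0.42 ± 0.14 (adjusted p = 0.0399). The former call was lost with only NUL and LAC mice in the fit (adjusted p = 0.0505). The latter was lost with any of 8 mice left out and under median-ratio scaling (adjusted p = 0.123). The Mmp2 differences were -0.62 ± 0.16 and 0.57 ± 0.14 among mice numbered 200 and above (adjusted p = 0.0286 and 0.0164). The membrane-bound metalloproteinase Mmp14 was at 21.7 ± 9.38, 23.9 ± 4.90 and 34.0 ± 7.37 TPM (SD) in NUL, LAC and ID6 mice. Its difference of 0.71 ± 0.23 between ID6 and NUL had the smallest adjusted p of the 48 genes in that comparison, 0.0803, and passed without mouse NUL_227 (adjusted p = 0.0251). Mmp14 was higher by 0.71 ± 0.17 at 200 and above (adjusted p = 0.00843), and among those mice the ID6 minus NUL difference was 0.24 ± 0.16 (adjusted p = 0.616). Mmp15 (means of 6.07, 6.96 and 5.66 TPM) and Mmp9 (0.216, 0.133 and 0.268 TPM) were not called.

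The lysyl oxidases crosslink collagen and elastin. Loxl1 was lower by 0.33 ± 0.08 in LAC mice (0.375 ± 0.0965 TPM, SD, n = 6) than in NUL mice (0.730 ± 0.216 TPM, n = 7; adjusted p = 0.0118) and higher by 0.32 ± 0.08 at ID6 (0.715 ± 0.0993 TPM; adjusted p = 0.00746), without overlap in either comparison, and both passed among mice numbered 200 and above (adjusted p = 0.048 and 0.0387). Loxl2 was not called, with means of 0.934, 1.0 and 1.01 TPM. Lox, which was not tested, measured 0.03, 0.06 and 0.22 TPM (lowest, median and highest) in NUL, 0.03, 0.07 and 0.11 TPM in LAC, and 0.03, 0.105 and 0.28 TPM in ID6 mice. Timp1, the inhibitor that rises in fibrotic liver, was listed at 0 in mice LAC_36 and LAC_213 and at 0.03, 0.04, 0.14 and 0.17 TPM in the other LAC mice. It measured 0.09, 0.19 and 0.34 TPM (lowest, median and highest) in NUL and 0.09, 0.28 and 0.62 TPM in ID6 mice. The difference between ID6 and LAC was 0.28 ± 0.09 (SE, adjusted p = 0.026) and was lost with any of 4 mice left out and among mice numbered 200 and above (adjusted p = 0.156). With 0.1 in place of 1 TPM added, the Timp1 difference was 1.25 ± 0.35 (adjusted p = 0.0147). Timp3, which binds to the matrix, was at 2.96, 3.14 and 3.0 TPM.

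The 9 stellate cell markers and signals included 4 lower and 1 higher in LAC than in NUL mice (6.51% and 2.72% of all genes). At ID6, 2 were higher than in LAC mice (18.1% of all genes). HGF is a mitogen for hepatocytes made by stellate and endothelial cells. Hgf (chromosome 5, 16553495 to 16620152) measured 4.12, 4.66 and 5.65 TPM (lowest, median and highest) in NUL, 2.19, 2.86 and 3.62 TPM in LAC, and 4.15, 4.55 and 5.32 TPM in ID6 mice, so that LAC mice were apart from both other stages. The differences were -0.58 ± 0.09 (SE, adjusted p = 4.36e-04) and 0.57 ± 0.09 (adjusted p = 2.26e-04), 40.1% lower in mean TPM and 1.65-fold higher. Among mice numbered 200 and above they were -0.79 ± 0.11 (adjusted p = 0.00104) and 0.71 ± 0.10 (adjusted p = 4.18e-04), and neither call was lost in any alternative with no fold threshold.

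Reelin (Reln) was the most abundant gene of the group. It measured 11.8, 13.2 and 19.1 TPM (lowest, median and highest) in NUL, 6.55, 8.71 and 12.2 TPM in LAC, and 8.87, 12.5 and 14.4 TPM in ID6 mice. LAC mice were lower than NUL mice by 0.61 ± 0.15 (SE, adjusted p = 0.0145; 0.0836 among mice numbered 200 and above), and the ID6 difference of 0.40 ± 0.16 did not pass (adjusted p = 0.0747). Acta2, the smooth muscle actin of activated stellate cells and of vessel walls (chromosome 19, 34241090 to 34255590), measured 1.99, 2.69 and 4.79 TPM in NUL, 0.76, 1.46 and 1.96 TPM in LAC, and 1.28, 2.65 and 3.96 TPM in ID6 mice. It was lower by 0.74 ± 0.19 in LAC than in NUL mice (adjusted p = 0.0201) with no overlap, a mean 53.9% below, and by 0.92 ± 0.25 among mice numbered 200 and above (adjusted p = 0.0415). At ID6 the values again spread over both other groups, with a difference of 0.53 ± 0.20 (adjusted p = 0.0643).

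Desmin (Des), a muscle intermediate filament also found in rodent stellate cells, measured 1.76, 2.07 and 9.90 TPM (lowest, median and highest) in NUL, 0.89, 1.59 and 2.07 TPM in LAC, and 1.35, 2.15 and 2.87 TPM in ID6 mice. The highest value came from mouse NUL_1, which also had the highest Acta2. The Des differences of -0.59 ± 0.25 and 0.25 ± 0.25 did not pass (SE, adjusted p = 0.148 and 0.506). Of the PDGF receptors, which drive division of stellate cells and fibroblasts, Pdgfra was lower in LAC (1.07 ± 0.107 TPM, SD, n = 6) than in NUL mice (1.67 ± 0.365 TPM, n = 7) by 0.35 ± 0.09 (adjusted p = 0.0163; 0.0376 among mice numbered 200 and above). Pdgfrb measured 1.12, 1.61 and 2.66 TPM in NUL, 1.25, 1.72 and 1.97 TPM in LAC, and 1.58, 2.15 and 2.54 TPM in ID6 mice and was not called (adjusted p = 0.676 and 0.26).

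The TGF-β genes were called in different comparisons. Tgfb1, the ligand, measured 1.96, 5.16 and 6.15 TPM (lowest, median and highest) in NUL, 2.37, 2.92 and 4.13 TPM in LAC, and 4.96, 5.90 and 6.99 TPM in ID6 mice. It was higher by 0.75 ± 0.19 at ID6 than in LAC (SE, adjusted p = 0.00757), without overlap, whereas LAC minus NUL was -0.33 ± 0.18 (adjusted p = 0.292). The 3 NUL mice numbered under 200 held the lowest NUL values, and Tgfb1 was higher at 200 and above by 0.65 ± 0.11 (adjusted p = 0.0014). Among mice numbered 200 and above the differences were 0.55 ± 0.11 (adjusted p = 0.00445) and -0.50 ± 0.12 (adjusted p = 0.0232). Tgfbr2, its type II receptor, was the only gene higher in LAC mice, with 4.04, 4.39 and 6.48 TPM in NUL, 4.61, 8.15 and 13.1 TPM in LAC, and 5.05, 6.48 and 8.01 TPM in ID6 mice. The difference of 0.65 ± 0.16 (adjusted p = 0.0166) was 0.26 ± 0.19 (adjusted p = 0.48) among mice numbered 200 and above. Ctgf, a matricellular TGF-β target, had means of 1.59, 2.10 and 1.38 TPM and was not called.

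The range of animal number was examined in NUL and LAC mice with stage in the fit. With it 9 of the 48 genes differed, higher at 200 and above for Col18a1, Ecm1, Hspg2, Lamc1, Mmp14, Postn, Tgfb1 and Timp2 and lower for Col15a1, beside 16.5% of all genes higher and 9.13% lower. The interaction of stage and range passed for 0 of the 48 genes in limma-trend (smallest adjusted p 0.212; 16 genes at an unadjusted p under 0.05), where 0.0494% and 0.0617% of all genes passed in the 2 directions. Among mice numbered 200 and above, 14 of the genes were lower in LAC than in NUL mice (4.43% of all genes), 9 of them among the 12 called over all mice, and 11 were higher at ID6 than in LAC mice (10.6% of all genes), all 11 among the 15.

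**Figure D3:**
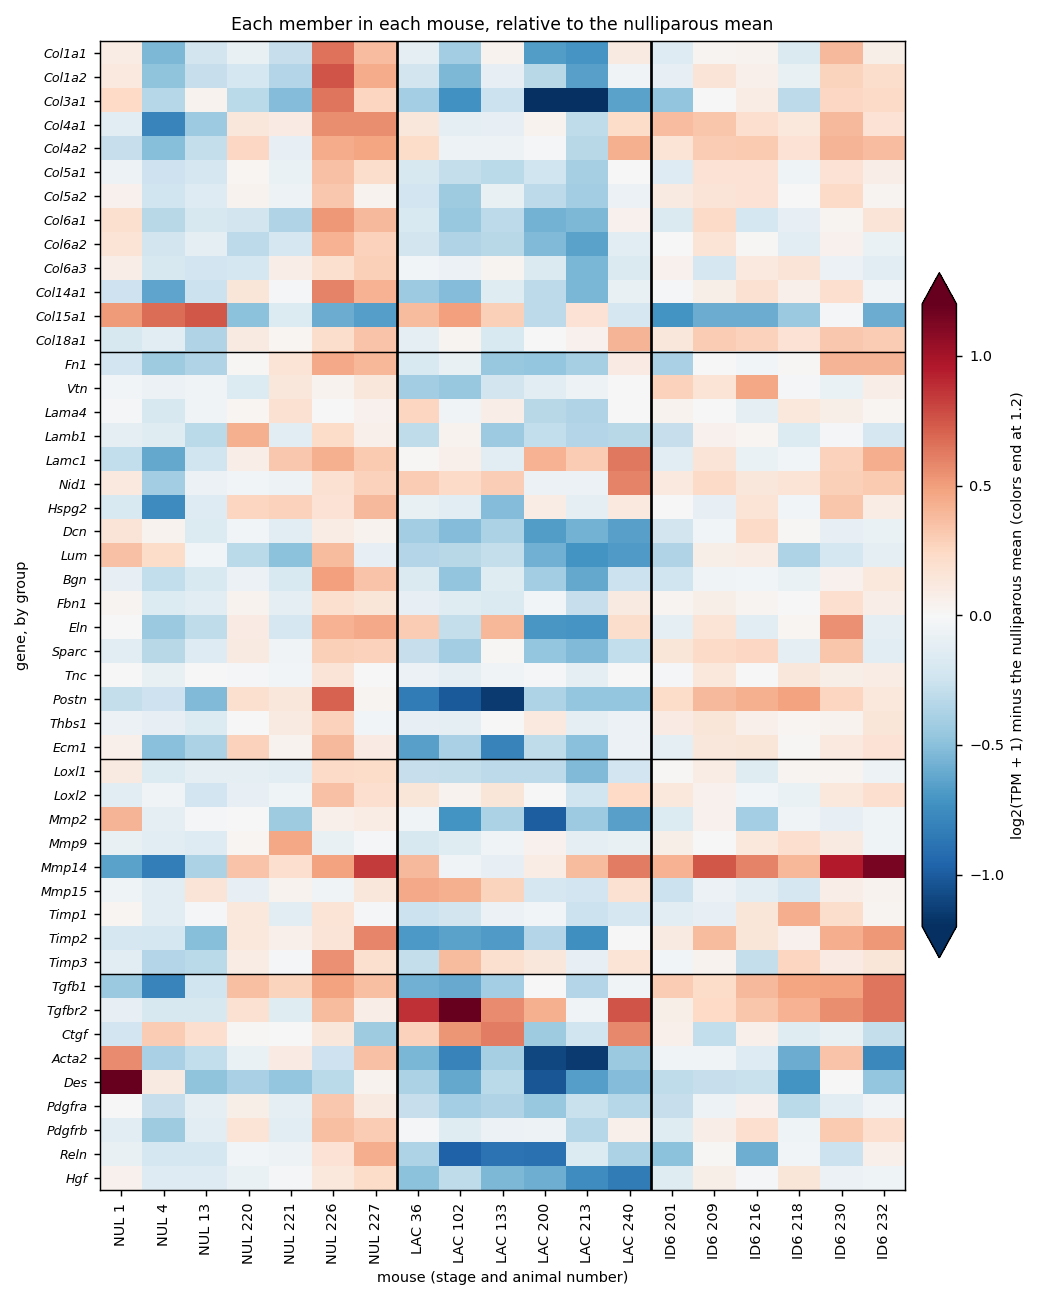
Each of the 48 tested genes (rows, in the order of the groups) in each of the 19 mice (columns, by stage and animal number), as log2(TPM + 1) minus the NUL mean; red is above and blue below that mean, and colors end at 1.2. LAC columns are mostly blue for Dcn, Postn, Acta2, Reln and Hgf, while mouse NUL_226 is red and mouse NUL_4 blue in most rows.

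The plot of each gene by mouse shows that mice differed among themselves in many of these genes together. Mouse NUL_226 was the highest NUL mouse in 27 of the 48 genes and mouse NUL_4 the lowest in 30. Among LAC mice, LAC_240 was highest in 23 and LAC_213 lowest in 26, and among ID6 mice, ID6_230 was highest in 19 and ID6_201 lowest in 19. These values are unscaled, and the same counts over all genes were not made. The factors by which median-ratio scaling divides a mouse were 1.022 for NUL_226 and 0.897 for NUL_4. They were 1.005 for LAC_240, 0.942 for LAC_213, 1.131 for ID6_230 and 0.979 for ID6_201. Whether the genes varied together beyond such shifts was not tested. The counts by stage moved with some of these mice. Without mouse NUL_4, 16 genes were lower in LAC, and without mouse LAC_213, 8 were.

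A wider list held 24 genes of TGF-β signaling. It had 6 lower in LAC than in NUL mice (6.51% of all genes) and 10 higher at ID6 than in LAC mice (18.1%). Its leading genes in LAC were the activin chain Inhbe (-1.22 ± 0.26, SE, adjusted p = 0.00607), the inhibitory Smad7 (-1.02 ± 0.30, adjusted p = 0.0398) and Tgfbi, a TGF-β-induced matrix protein (-0.89 ± 0.11, adjusted p = 1.28e-04). At ID6 the same 3 genes had the largest rises, by 0.94, 1.45 and 0.88. The summed level of the list was 127 ± 26.3, 96.9 ± 10.2 and 140 ± 12.9 TPM (SD) in NUL, LAC and ID6 mice.

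Genes that process or bind matrix were also listed. Of all genes tested, 2.72% were called higher and 6.51% lower in LAC than in NUL mice. At ID6, 18.1% were higher and 4.73% lower than in LAC mice, and 3.36% were higher than in NUL mice. Over all genes, 544 were higher at ID6 than in NUL mice, and 76 among mice numbered 200 and above. The calls against NUL below are over all mice, and 3 of the 7 NUL mice but no ID6 mouse were numbered under 200. Of 22 tested collagen-modifying enzymes, 1 was higher in LAC than in NUL mice, 4 were higher and 1 lower at ID6 than in LAC mice, and 1 was higher at ID6 than in NUL mice. Pcolce2, which enhances procollagen cleavage, rose from 0.748 ± 0.452 to 1.90 ± 0.405 TPM (SD) between LAC and ID6 (adjusted p = 0.00273) and was above NUL (0.976 ± 0.404 TPM, adjusted p = 0.0487). Of 16 matrix receptors, 1 was lower in LAC mice (Sdc4, -0.73 ± 0.16, SE, adjusted p = 0.00672), 5 were higher at ID6, and 2 were higher at ID6 than in NUL mice. The hyaluronan receptor Cd44 measured 1.70 ± 0.629, 1.02 ± 0.362 and 3.0 ± 0.414 TPM in NUL, LAC and ID6 mice, higher at ID6 than at either other stage (adjusted p = 1.03e-04 against LAC and 0.0287 against NUL). Of 20 other proteases and inhibitors, 1 was lower in LAC, 7 were higher at ID6, and 2 (Mmp12 and Plg) were above NUL at ID6. Of 10 other basement membrane genes, 1 was lower in LAC and 1 lower at ID6.

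Markers of some of the cell types that a liver sample can hold moved with these genes, and those of others did not. Their part in the member differences was not tested. Of all genes tested, 6.51% were called lower in LAC than in NUL mice and 18.1% higher at ID6 than in LAC mice. Of 13 markers of quiescent stellate cells, 4 were lower in LAC (Cygb, Ngfr, Colec11 and Rspo3), and 6 were higher at ID6 than in LAC mice. Their summed level was 62.3 to 77.7 TPM in NUL, 55.7 to 67.8 TPM in LAC and 75.3 to 86.9 TPM in ID6 mice. Cygb, a stellate cell globin, fell by 0.55 ± 0.11 on the log2 scale in LAC (SE, adjusted p = 0.00373) and rose by 0.79 ± 0.12 at ID6 (adjusted p = 8.38e-05). Of 9 tested portal fibroblast markers, 4 were lower in LAC mice and 6 higher at ID6, with sums of 23.6 to 43.7, 12.7 to 21.5 and 23.7 to 34.0 TPM in NUL, LAC and ID6 mice, so that no LAC mouse reached another stage. Gsn fell by 1.10 ± 0.18 in LAC (adjusted p = 6.50e-04). Of 7 smooth muscle markers, 1 (Tagln, -0.95 ± 0.16, adjusted p = 0.00104) was lower in LAC and 1 higher at ID6, with sums of 16.8 to 21.3, 9.66 to 15.8 and 14.4 to 20.8 TPM.

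Shares of all genes called, for the lists that follow, were 6.51% lower and 2.72% higher in LAC than in NUL mice. They were 18.1% higher and 4.73% lower at ID6 than in LAC mice, and 3.36% higher at ID6 than in NUL mice. Of 11 Kupffer cell and macrophage markers, 10 were lower in LAC than in NUL mice. At ID6, 11 were higher than in LAC mice and 10 higher than in NUL mice. The 11 summed to 291 to 546 TPM in NUL, 199 to 377 TPM in LAC and 611 to 816 TPM in ID6 mice. NUL sums were 291 to 376 TPM under 200 and 460 to 546 TPM at 200 and above, the range of all ID6 mice. Of 9 sinusoidal endothelium markers, 4 were lower in LAC and 5 higher at ID6, with sums of 177 to 236, 109 to 179 and 237 to 258 TPM. Of 10 hepatocyte markers, 1 (Alb, 0.86 ± 0.15, SE, adjusted p = 0.00136) was higher in LAC, and at ID6 1 was higher (Ttr) and 1 lower (Alb) than in LAC mice, with sums of 61265 to 96771, 100865 to 152430 and 82021 to 113605 TPM. Alb alone, with means of 55208, 100197 and 62534 TPM, made up most of the mean sums of 79586, 122955 and 89939 TPM. The sums thus mainly follow that gene. The Ttr difference of 0.72 ± 0.23 (adjusted p = 0.0316) turned to -0.0218 (adjusted p = 0.947) under median-ratio scaling among mice numbered 200 and above, an alternative chosen after seeing the data. Of 7 cholangiocyte markers, 1 (Spp1) was lower in LAC and higher at ID6, with sums of 37.5 to 54.9, 24.5 to 35.8 and 33.1 to 47.9 TPM. Of 6 tested pancreatic acinar markers, 1 (Cela1) did the same, with sums of 22.3 to 41.8, 4.89 to 33.6 and 17.4 to 21.1 TPM, and Cela1 had the highest mean of the 6 at each stage. The other 5 had higher means in LAC than in NUL mice, such as Ctrb1 at 3.59 ± 6.41 and 0.119 ± 0.288 TPM (SD), and were not called. The 7 mesothelium markers (3.94 to 6.73, 3.65 to 5.92 and 4.46 to 5.64 TPM) and 5 tested adipocyte markers (all 6 summed to 1.19 to 21.8, 0.92 to 3.60 and 1.09 to 21.7 TPM) gave 0 calls in limma-trend, with at most 2 at an unadjusted p under 0.05 in a comparison. No marker in these lists was at 0 in every mouse, and those with a mean under 0.1 TPM were Slit2, Amy2b and Lep.

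**Figure D4:**
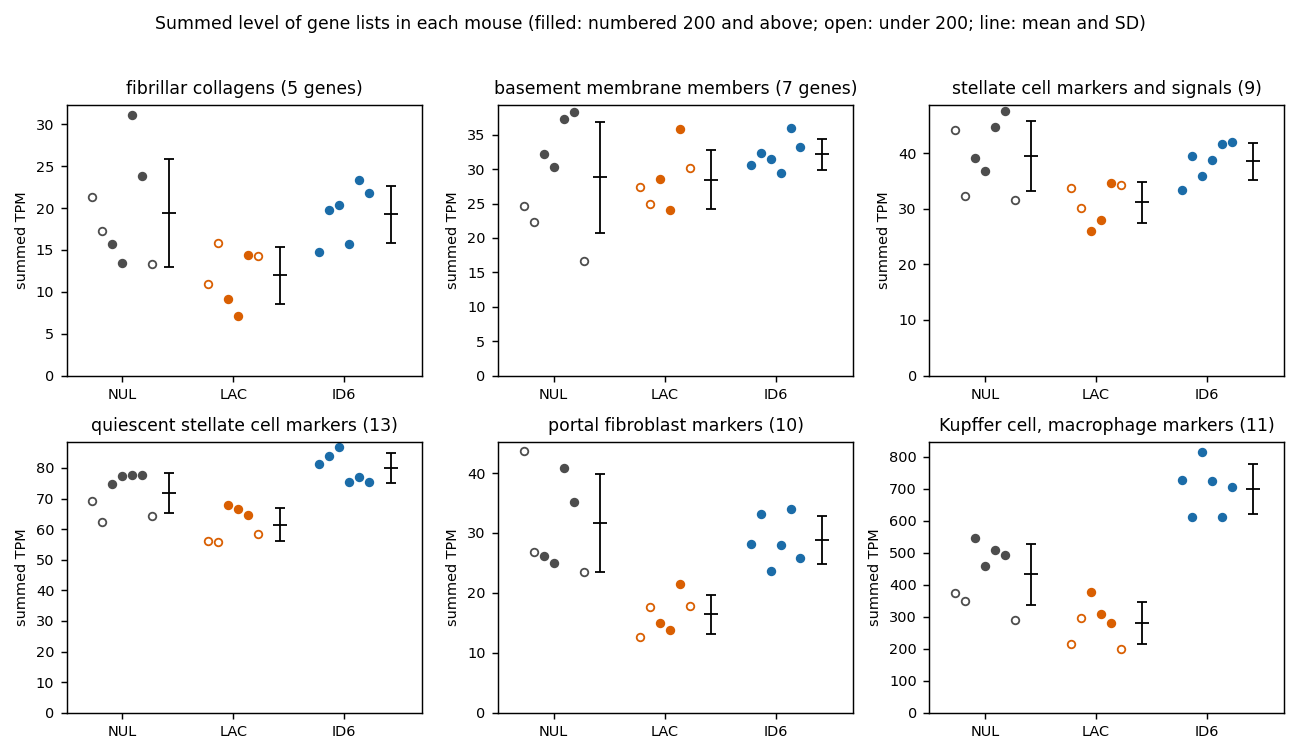
Summed TPM per mouse of 5 fibrillar collagens, 7 basement membrane members, 9 stellate cell markers and signals, and marker lists of quiescent stellate cells, portal fibroblasts and Kupffer cells and macrophages, on linear axes from 0; filled points are mice numbered 200 and above, open points mice under 200, and bars are the mean with SD (n = 7, 6 and 6). Portal fibroblast sums of LAC mice (12.7 to 21.5 TPM) lie below those of all other mice, and basement membrane sums overlap at all stages.

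The plot of summed levels sets the members beside these lists. The 9 stellate cell markers and signals summed to 31.5 to 47.6 TPM in NUL, 26.0 to 34.7 TPM in LAC and 33.4 to 41.9 TPM in ID6 mice. Their ranges overlapped between stages, as did those of the fibrillar chains, 13.4 to 31.1, 7.14 to 15.8 and 14.7 to 23.3 TPM.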

How the data were processed

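Poly(A) RNA from 19 mouse livers was sequenced with paired-end reads. The authors aligned them to GRCm38, estimated gene levels by RSEM 1.3.1, per the labels and the study's methods, and deposited TPM per gene and mouse (the aligner's settings are not given in the sources used here). RSEM shares reads between similar genes, and the kit's name and catalogue number as given do not settle whether strand was kept, so 20 members with exonic bases shared with another annotated gene are less certain. For repeated symbols the entry with the highest mean was used.

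From the deposited TPM, log2(TPM + 1) was tested, for genes averaging 0.1 TPM or more, with limma-trend (limma 3.58.1, R 4.3.3), with 1 mean per stage, all 19 mice and Benjamini-Hochberg adjustment. A count test, as in the study's methods, needs counts and was not run. The script was tested on simulated data. Gene positions are from GENCODE on GRCm38. Mice are separate animals. The members, gene lists, tests and alternatives were chosen with earlier results of these data known. Full values were given for up to 10 called members with the largest differences per comparison and for 12 fixed genes; of other lists at most 3 called genes with a mean of 1 TPM or more were named per list and comparison, beyond which marker genes and Mmp12 were named after their values were seen. Alternatives changed the pseudocount, filter, scaling, moderation, fold threshold, mice in the fit and range of animal number. The result of 1 gene among the cell type markers is not reported here.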

Additional observations from a re-analysis of the deposited data

Results flagged for a closer look

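Within a stage, 7 values stood apart from the other mice by Dixon's criterion, out of 144 groups of mice examined (48 genes at 3 stages), or 4.86%; chance alone gives about 1 in 20. The highest values that stood apart were Des at 9.90 TPM in mouse NUL_1 (next 3.15 TPM), Mmp9 at 0.66 TPM in mouse NUL_221, Tnc at 0.25 TPM in mouse NUL_226, Col18a1 at 339.05 TPM in mouse LAC_240, Lamb1 at 2.17 TPM in mouse LAC_102, and Col15a1 at 1.76 TPM in mouse ID6_230. The lowest was Loxl1 at 0.19 TPM in mouse LAC_213. They came from 7 different mice. Of the 7 genes, Loxl1 was called between stages, and its LAC and NUL calls held with LAC_213 left out.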

How the results depend on the processing

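With only the stages compared in the fit, 7 members were lower in LAC than in NUL mice (12 over all stages), beside 695 of 16160 genes. Between ID6 and LAC that fit added 7 calls of members and lost none of the 15. Of the added calls, 1 was lower at ID6 than in LAC mice (0 lower over all stages). Over all genes 2984 of 16106 were then higher and 764 lower. Median-ratio scaling left 9 members higher at ID6 than in LAC mice (15 without it) and 1 lower; quantile normalization and the range of animal number as a covariate also gave 1 lower. A log2 fold threshold of 1 left 0 lower and 0 higher in LAC and 1 higher at ID6. Mice numbered 200 and above gave 0 members higher in LAC (1 over all mice). Median-ratio scaling on those mice, chosen after seeing the data, gave 0 higher in LAC, 8 higher and 1 lower at ID6, and turned Ttr to -0.0218 (adjusted p = 0.947); the causes were not tested. With 1 mouse left out, 8 to 16 members were lower and 1 to 1 higher in LAC, 11 to 18 were higher and 0 to 2 lower at ID6 than in LAC mice, and 0 to 1 were higher than in NUL mice (Mmp14 without mouse NUL_227). A lower member at ID6 appeared without mouse NUL_13, mouse LAC_213 or mouse ID6_230 (1 each) and mouse LAC_200 (2). Other pseudocounts, filters and robust moderation kept the counts within 1.5 times. Called in every setting without a fold threshold were Dcn, Postn, Acta2 and Hgf in LAC and Dcn, Postn, Timp2, Tgfb1 and Hgf at ID6. Over all genes, median-ratio scaling moved ID6 minus NUL from 544 higher and 140 lower to 166 and 215. Only mice numbered 200 and above gave 76 and 52, and the range of animal number as a covariate gave 174 and 81. No paired analysis was possible because the stages share no animal numbers. TPM keep no depth, so no limit from read number could be set.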
